A study of Mus musculus with 30 samples.

Results

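The regions described here are those at which chromatin immunoprecipitation followed by sequencing (ChIP-seq) found Ikaros on the DNA of mouse thymocytes, in mice with normal Aiolos and in mice with the G158R missense mutation of Aiolos on both gene copies. They are all entries of the 2 deposited broad-peak lists for the anti-Ikaros antibody (clone 4E9) in thymus: 3572 regions in the wild-type (WT, Ikzf3+/+) library and 8221 in the homozygous (homo, Ikzf3m/m) library, 11793 of the 24749 regions in the study's 8 ChIP-seq lists. Both libraries came from mice of the C57BL/6 strain, and the gene for Ikaros itself, Ikzf1, carries no labelled change in either genotype. The study also profiled Ikaros in pre-B cells, Aiolos in both cell types, 4 input libraries whose files were not analysed here, and RNA in 18 libraries of B lineage cells. Each genotype had 1 Ikaros library in thymocytes, so nothing below has a replicate check or a test; the number of animals behind a library and their age are not in the labels. The depth of the libraries is unknown, and a region missing from a list is one that the caller did not report there, which is not the same as a site without Ikaros.

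Ikaros and Aiolos (Ikzf3) are zinc finger transcription factors of 1 family. Their N-terminal fingers bind DNA that holds the core GGGAA, their C-terminal fingers join family members into dimers, and the dimers bring the NuRD chromatin remodelling complex to lymphoid genes. In the thymus, Ikaros is known for setting the threshold of T cell receptor signalling, restraining Notch target genes and limiting the growth of developing T cells, and its loss in mice leads to T cell leukaemia. A peak list holds no RNA, so the cell type could be described only by where Ikaros was found: 7 of 9 thymocyte marker genes had a region in the WT list and 8 of 9 in the homo list (Cd3e was added, and Ptcra had none). Of the B lineage markers, 2 of 6 and 4 of 6 had one, of the NK markers 1 of 3 and 2 of 3, and of the myeloid markers 0 of 4 in both lists, where 9.93% and 27.1% of all protein-coding genes had one. The markers are few, and 2 of 16 genes of a longer myeloid list had a region in WT and 3 in homo.

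A region is called kept when it overlaps a region of the other genotype's list by at least 1 base, and WT-only or homo-only when it does not. A majority of the homo-only regions sat at promoters, which most kept regions did not. The 6 promoters below show both kinds: Lcp2 (the adaptor SLP-76 of T cell receptor signalling), Arhgdib (a regulator of small GTPases in blood cells) and Il7r (the interleukin-7 receptor) had a region in both lists, while Shprh (a ubiquitin ligase of DNA damage tolerance), Socs1 (an inhibitor of cytokine signalling) and Lck (the kinase that starts T cell receptor signalling) had one at the start in the homo list alone. The sequences are RefSeq's, build GRCm38.p6 (mm10), from 250 bases before to 50 bases after a transcription start, read 5′ to 3′ on the gene's strand and counted from 1; capitals mark GGGAA on either strand, so TTCCC as well.
Lcp2 (chr11:34046678-34046977, plus strand): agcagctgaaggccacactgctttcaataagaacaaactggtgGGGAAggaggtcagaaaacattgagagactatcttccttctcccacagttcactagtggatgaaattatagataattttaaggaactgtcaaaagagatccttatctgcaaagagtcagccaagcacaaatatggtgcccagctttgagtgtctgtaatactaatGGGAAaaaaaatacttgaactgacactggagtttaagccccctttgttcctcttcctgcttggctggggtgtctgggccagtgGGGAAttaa
Arhgdib (chr6:136941454-136941753, minus strand): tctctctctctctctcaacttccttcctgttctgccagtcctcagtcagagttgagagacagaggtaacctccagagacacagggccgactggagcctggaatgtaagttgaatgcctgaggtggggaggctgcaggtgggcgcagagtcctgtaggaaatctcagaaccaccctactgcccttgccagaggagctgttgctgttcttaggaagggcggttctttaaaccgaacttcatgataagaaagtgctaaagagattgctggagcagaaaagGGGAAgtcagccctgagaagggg
Il7r (chr15:9529827-9530126, minus strand): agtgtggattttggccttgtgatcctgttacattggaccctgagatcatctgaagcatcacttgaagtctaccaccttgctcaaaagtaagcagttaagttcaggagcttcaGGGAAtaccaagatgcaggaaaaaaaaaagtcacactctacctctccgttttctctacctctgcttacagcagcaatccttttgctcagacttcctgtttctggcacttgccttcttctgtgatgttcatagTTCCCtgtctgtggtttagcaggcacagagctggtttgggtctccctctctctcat
Shprh (chr10:11149180-11149479, plus strand): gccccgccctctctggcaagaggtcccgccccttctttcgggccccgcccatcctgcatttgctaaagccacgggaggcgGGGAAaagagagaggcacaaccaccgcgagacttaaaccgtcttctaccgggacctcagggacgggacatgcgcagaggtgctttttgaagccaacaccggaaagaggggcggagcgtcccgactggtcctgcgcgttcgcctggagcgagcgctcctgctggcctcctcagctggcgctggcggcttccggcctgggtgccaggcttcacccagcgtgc
Socs1 (chr16:10785487-10785786, minus strand): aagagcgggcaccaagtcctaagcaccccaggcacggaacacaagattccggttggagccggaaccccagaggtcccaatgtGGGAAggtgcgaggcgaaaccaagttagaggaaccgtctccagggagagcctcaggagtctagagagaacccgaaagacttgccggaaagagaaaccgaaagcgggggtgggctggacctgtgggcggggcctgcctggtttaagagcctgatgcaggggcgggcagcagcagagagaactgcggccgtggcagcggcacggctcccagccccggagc
Lck (chr4:129558323-129558622, minus strand): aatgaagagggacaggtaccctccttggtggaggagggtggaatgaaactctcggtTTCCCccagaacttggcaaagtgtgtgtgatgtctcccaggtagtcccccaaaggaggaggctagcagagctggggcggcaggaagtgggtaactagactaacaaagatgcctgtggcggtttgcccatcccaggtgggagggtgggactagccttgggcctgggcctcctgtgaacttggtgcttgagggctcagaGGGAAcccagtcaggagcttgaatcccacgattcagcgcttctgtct
The table of promoters held 26993 of the 49939 reference genes. Lcp2 has 3 matches and no CG pair in its window, and Il7r has 2 matches with 1 CG pair; Shprh has 1 match with 25 CG pairs and Socs1 1 match with 18. Lck has 2 matches and 5 CG pairs, and Arhgdib 1 match and 4. These 6 do not stand for their classes, whose median windows held 24 CG pairs (kept) and 25 (homo-only). A match to the letters is a description of the sequence and does not show where the protein sits.

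The homo list was 2.30 times as long as the WT list and covered 2.73 times as many bases, 4.39 Mb against 1.61 Mb. Regions were also wider in the homo list, with a median of 400 bases (quartiles 269 and 661) against 334 bases (quartiles 244 and 540). The fold over control that the authors' peak caller gave each region ran from 1.33 to 37.9 in the WT list, with a median of 4.57. In the homo list it ran from 1.44 to 29.4, with a median of 4.26. These folds and the −log10 q values are the authors' own, and they serve below only to describe and rank regions within a list. The least certain regions of both lists were weak, with a lowest −log10 q of 1.13 in WT and 1.15 in homo.

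Most of the WT list was found again. Of the 3572 WT regions, 2817 (78.9%, exact 95% interval 77.5 to 80.2) overlapped a homo region, and 755 were WT-only. The 2804 homo regions that overlapped a WT region were 34.1% of their list (interval 33.1 to 35.1), and 5417 were homo-only. These intervals, as all others here, cover counting error only. The lists differ in length, which bounds the second share. When both were set to 3572 regions by taking the homo regions with the highest −log10 p, 54.4% of the WT list and 54.1% of the homo list overlapped.

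The kept regions lay at nearly the same place in both genotypes and were often wider in homo. In the 2786 pairs in which 1 WT region met 1 homo region, the midpoints were a median of 50 bases apart. The homo region was the wider in 1897 pairs (68.1%), with a median of 498 bases against 367, and in 1251 pairs it contained the WT region whole. The ranks of the folds in the 2 lists were related, with a Spearman correlation of 0.636 across these pairs, given as a description of regions that come from the same 2 libraries.

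Sharing followed the fold. In the WT list 355 of the 357 regions in the first of 10 equal bins by fold (9.49 to 37.9) were kept, 99.4%, and the share decreased to 61.5% in the last bin. All of the 100 WT regions with the highest fold were kept. In the homo list 73.8% of the first bin (7.46 to 29.4) were kept and 15.2% of the last, with the lowest share, 12.04%, in the ninth bin. Of the 100 homo regions with the highest fold 85 were kept, so 15 of them had no counterpart in the WT list. The 2 sets of 100 had 54 regions in common.

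**Figure D1:**
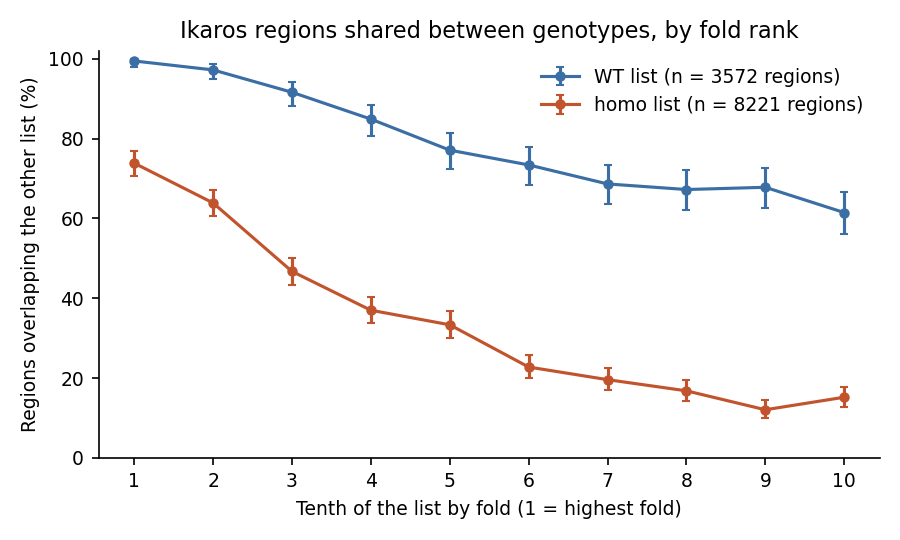
Share of Ikaros regions that overlap a region of the other genotype's list (vertical axis, percent) in 10 equal bins of a list ordered by fold (horizontal axis, 1 is the highest fold), for the WT list (blue) and the homo list (orange); bars are exact 95% binomial intervals. The WT shares run from 99.4% to 61.5% and lie above the homo shares, 73.8% to 12.04%, throughout.

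The kept regions with the highest rank in both lists were mostly far from promoters. The first lay inside Snx29, a sorting nexin gene, at chr16:11685492-11688211, with a fold of 37.9 (rank 1) in the WT list and 24.9 (rank 4) in the homo list. The second lay in Scml4, a Polycomb-group gene, with folds of 27.8 (rank 3) and 24.2 (rank 6). The third was at an end of Gpr61, an orphan receptor, with folds of 25.3 (rank 6) and 23.2 (rank 9). The others in the first 10 included a region 171195 bases from the nearer end of Ets1, a transcription factor of T cell development whose strand is not in the promoter table; it was at rank 8 in the WT list and 5 in the homo list. A further 5 lay in or near Zfp607b, Nfia, F13a1, Zp3r and, on chromosome 19, a site 40165 bases from the nearest protein-coding start. Only 2 of these 10 were counted at a promoter, those at Gpr61 and at the noncoding gene Gm27162, both by a gene end since their strand is not given either.

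Homo-only regions reached nearly as high within their list. The strongest was at an end of Bsg, which encodes the surface glycoprotein basigin and whose strand is not in the promoter table, at chr10:79704098-79704818, with a fold of 21.7 and rank 12 of 8221. The promoters of Mknk2, a kinase of the translation factor eIF4E, and Mrpl32, a mitochondrial ribosomal protein, followed with folds of 17.8 (rank 40) and 17.5 (rank 44). The widest region of the homo list, 7738 bases, was also homo-only. It lay inside Fyb, which encodes the T cell adaptor ADAP, at chr15:6526518-6534255, with a fold of 18.7 and rank 32. Other high homo-only regions lay 12033 bases from the start of Rbm43 (fold 21.3, rank 14), 23234 bases from that of Hephl1 (fold 17.2, rank 48) and at the promoter of Gm27011 inside Banp (fold 15.6, rank 72). Of the 10, 4 were at promoters.

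WT-only regions stayed lower in their list, a contrast that depends on list length. A WT-only region had to be missing from the longer list and a homo-only region from the shorter. With both lists at 3572 regions 54.4% of the WT list was kept in place of 78.9%, and the ranks were not taken again there. The highest was at chr14:54147167-54147845, 1156 bases from the variable segment Trdv5 of the T cell receptor δ locus, with a fold of 10.8 and rank 249 of 3572. A region inside Rbms3, an RNA-binding protein gene, came next with 10.5 (rank 274). It was followed by regions inside Disp1 (8.41, rank 466), at the promoter of Tbcel (8.06, rank 507), inside Cyth4 (7.79, rank 544) and inside Lgmn (7.08, rank 661). The median WT-only region was 245 bases wide and at percentile 30.5 of its list by fold (100 is the highest), while the median kept WT region was 368 bases wide and at percentile 57.5. The median homo-only region was 359 bases wide and at percentile 39.1 of the homo list, against 499.5 bases and percentile 73.3 for kept homo regions.

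More of the homo-only regions than of the others lay at promoters. A region was counted at a promoter when it touched the window from 1000 bases before to 1000 bases after a start, otherwise in a gene body, otherwise as intergenic; where the reference gives no strand, either gene end counted as a start. Of 5413 homo-only regions on named chromosomes, 3181 were at promoters, 58.8% (interval 57.4 to 60.1). The share was 32.3% (30.5 to 34.0) of the kept homo regions and 14.2% (11.8 to 16.9) of the WT-only regions. The reverse order held for gene bodies, with 25.5% of homo-only, 40.9% of kept homo and 50.9% of WT-only regions, and for intergenic DNA, with 15.7%, 26.8% and 34.9%. Over the whole lists, 27.8% of WT and 49.8% of homo regions were at promoters. In the strongest regions, 55.8% of the 215 homo-only regions in the first of the 10 fold bins of the homo list were at promoters, against 39.5% of all regions there. With both lists at 3572 regions the shares were 62.4% for homo-only, 33.1% for kept homo and 22.4% for WT-only regions. The WT-only share moved the most with the setting, to 25.02% for regions of at most 1000 bases, 27.7% with a 3000-base window and 8.86% for protein-coding genes alone.

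**Figure D2:**
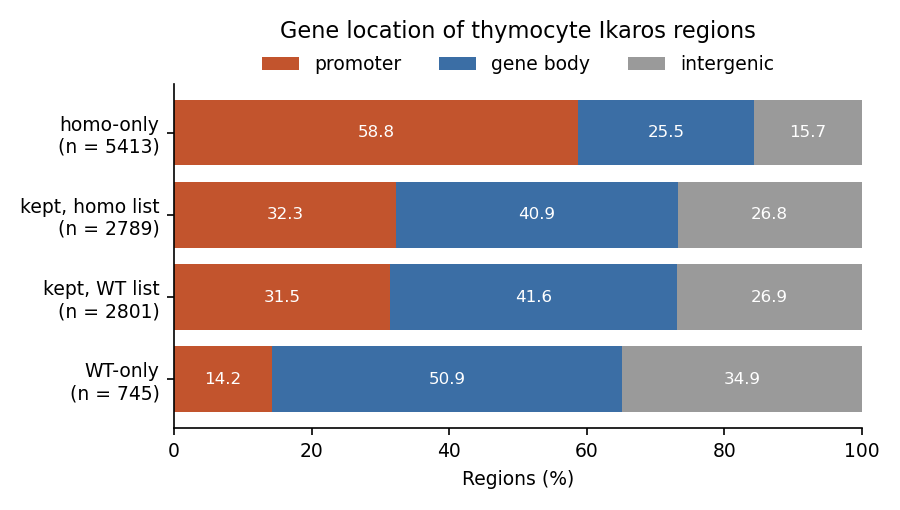
Share of regions (horizontal axis, percent) at a promoter (orange), in a gene body (blue) or intergenic (grey) for homo-only, kept and WT-only Ikaros regions on named chromosomes, with the number of regions beside each bar. The promoter share is 58.8% of homo-only regions, 31.5% and 32.3% of kept regions and 14.2% of WT-only regions.

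More of the homo-only regions were also centred close to the start. Measured to the nearest start of known strand, their midpoints were a median of 1325 bases away, against 11733 bases for kept homo regions and 16490 bases for WT-only regions. Within 250 bases of a start lay 35.9% of the homo-only midpoints, 12.2% of the kept homo midpoints and 2.18% of the WT-only midpoints. Within 1000 bases the shares were 48.6%, 22.1% and 7.50%. Among homo-only midpoints within 1000 bases, 55.2% were downstream of the start, and their median position was 26 bases downstream. The kept homo midpoints there were alike, with 56.1% downstream and a median of 26 bases. At promoters, homo-only regions had a median width of 412 bases and a median fold of 4.02, and kept homo regions a median width of 665 bases and a median fold of 5.45.

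**Figure D3:**
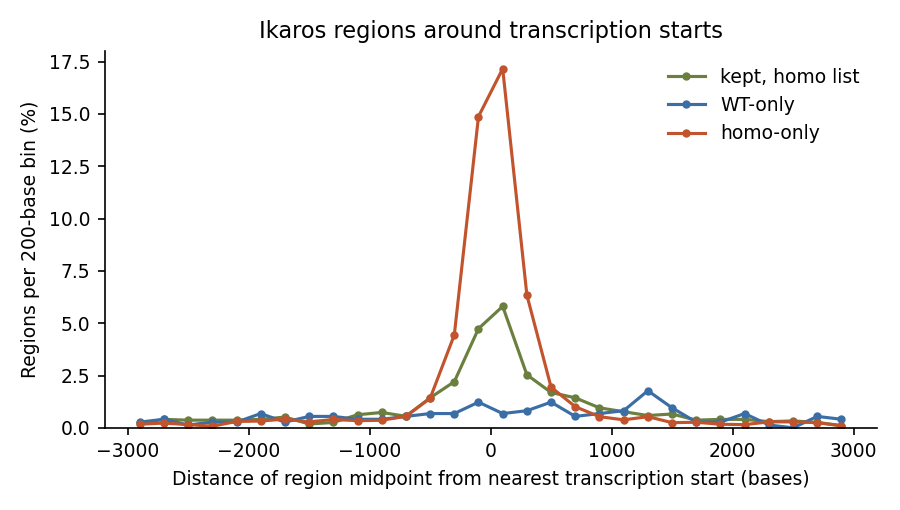
Share of region midpoints (vertical axis, percent of each class) in bins of 200 bases by distance from the nearest transcription start of known strand (horizontal axis, bases, negative is upstream). Homo-only regions peak at 17.2% in the first bin downstream of the start, kept homo regions at 5.80% in the same bin, and WT-only regions stay below 2% throughout.

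The number of genes with Ikaros at the start differed accordingly. At least 1 start with a region was found for 819 of 21883 protein-coding genes in the WT list (3.74%) and for 3977 in the homo list (18.2%); 754 genes were common to both, 3223 had one in the homo list alone and 65 in the WT list alone. The size of the gap depended on list length: with 3572 regions in each list, the counts were 819 and 1640. Several gene families were counted after these values had been seen. Of 81 cytosolic ribosomal protein genes, 4 had a region at the start in the WT list and 20 in the homo list, and of 78 mitochondrial ribosomal protein genes 5 and 20. Translation initiation factor genes went from 3 to 20 of 56, proteasome subunit genes from 3 to 11 of 40 and zinc finger genes named Zfp from 24 to 108 of 397. Solute carrier genes, which transport small molecules, went from 11 to 59 of 375, a little below the share of all protein-coding genes. Families read in few cell types were almost empty: 1 and 0 of 1110 olfactory receptor genes, and 0 in both lists of 353 vomeronasal receptor and 112 keratin genes. Among noncoding genes, 29 and 79 of 408 tRNA genes and 226 and 805 of 12727 lncRNA genes had a region at an end or start, where the shares over all 49939 reference genes were 2.42% and 10.3%. The tRNA shares (7.11% and 19.4%) lay above these and the lncRNA shares (1.78% and 6.33%) below.

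Promoters with a region were rich in CG pairs, in both classes. The median promoter window with a homo-only region held 64.7% G and C with 25 CG pairs, that with a kept region 62.7% with 24, and the median of all 32817 windows 52.7% with 7. The Ikaros core GGGAA, searched on both strands, was present in 73.3% of 649 promoters with a kept region (69.8 to 76.7), in 68.1% of 2923 with a homo-only region (66.4 to 69.8) and in 62.7% of all windows. Set by G and C content, the order of kept and homo-only was not the same throughout: below 50% the shares were 66.7% of kept and 63.8% of homo-only promoters, from 50 to 60% they were 70.9% and 71.6%, from 60 to 70% 79.0% and 69.6%, and above that 68.8% and 63.3%. Windows with no region held it in 57.4%, 68.4%, 64.4% and 54.4% of the same bands. The longer TGGGAA was in 26.8% of kept and 21.8% of homo-only promoters, against 25.6% of all. The ETS factor core GGAAG, which shares letters with GGGAA where GGGAAG occurs, was in 83.5%, 78.3% and 71.4%. Of motifs of other T cell factors, the RUNX core TGTGGT was in 13.6%, 8.83% and 16.8%, the GATA-type AGATAA in 5.24%, 3.56% and 11.2%, the TCF core CTTTGA in 10.2%, 10.2% and 16.0%, and the E-box CAGCTG in 14.6%, 14.9% and 16.3%. The shares of these other motifs were not set by G and C content, which was higher in windows with a region than in all windows. The 27 promoters with a WT-only region held GGGAA in 77.8% (57.7 to 91.4), an interval that spans the other classes.

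Genes of thymocyte biology were counted from 14 lists of 237 genes, where a gene is called when a region lies in it or within 5000 bases. Among all 49939 reference genes 6.67% were called in the WT list and 16.9% in the homo list. Among the 21883 protein-coding genes the shares were 9.93% and 27.1%, with 8.87% called in both, 18.2% in the homo list alone and 1.06% in the WT list alone. Of the 237 list genes 75 (31.6%) were called in the WT list and 143 (60.3%) in the homo list; 71 were called in both, 72 in the homo list alone and 4 in the WT list alone. The 4 were Gatad2b, Gpr183, Tnfrsf9 and Bach2. At starts the list genes went from 29 to 93. With both lists at 3572 regions 75 and 86 list genes were called, and 6.67% and 8.08% of all reference genes, and the counts below depend on list length in the same way. At that length the homo counts were 17 for T cell receptor signalling, 14 for T lineage factors, 10 for receptor and surface genes, 6 for cytokine genes, 6 for cell cycle genes, 5 for survival genes, 5 for recombination genes, 3 for the Ikaros family and, for B lineage, NK and myeloid genes, 6, 1 and 2. The homo counts were then below the WT counts for Notch (3 against 4), corepressor (3 against 5) and homing genes (5 against 6). The list genes had a median length of 20.9 kb against 17.2 kb for all protein-coding genes, and long genes have more room for a region. Length differed more between lists. The medians were 51.4 kb for T cell receptor signalling, 47.1 kb for T lineage factors and 81.4 kb for the Ikaros family. They were 8.64 kb for NK and 3.71 kb for myeloid genes. Survival genes (10.7 kb) and receptor and surface genes (11.5 kb) were also short, with 81.25% and 75% called in the homo list. The counts were not adjusted for length.

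**Figure D4:**
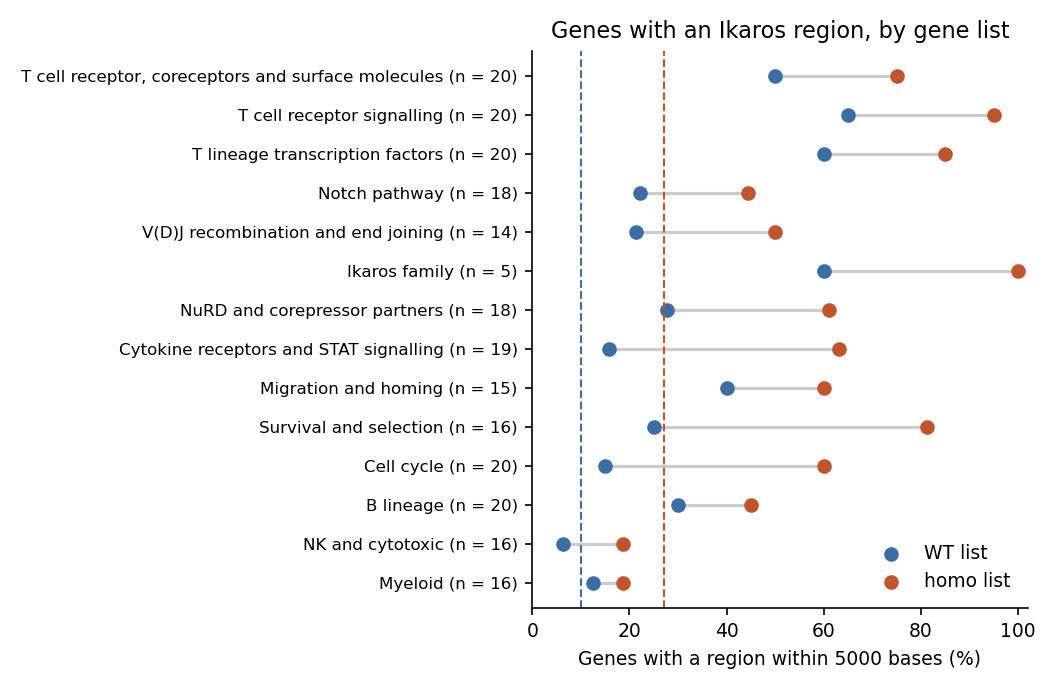
Share of the genes of each list (vertical axis, with the number of genes) that have an Ikaros region in the gene or within 5000 bases (horizontal axis, percent), in the WT list (blue) and the homo list (orange); dashed lines give the same share of all protein-coding genes, 9.93% and 27.1%. T cell receptor signalling is the highest list of more than 5 genes, at 65% and 95%, and the NK and myeloid lists lie at 18.75% in the homo list, below its dashed line; in WT the NK list is below its line and the myeloid list above. Shares are not adjusted for gene length, with medians of 51.4 kb for T cell receptor signalling, 8.64 kb for NK and 3.71 kb for myeloid genes.

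T cell receptor signalling genes carried Ikaros in both genotypes. Of 20 genes 13 had a region in the WT list and 19 in the homo list, and all 13 were among the 19. At the Lcp2 start, whose sequence is printed above, the WT region had a fold of 19.5 (rank 30) and a width of 856 bases, and the homo region a fold of 19.7 (rank 22) and a width of 1119 bases. Sh2d1a, the adaptor SAP, had folds of 17.8 (rank 38) and 14.4 (rank 98) at a gene end, its strand not being in the promoter table. Grap2, the adaptor Gads that binds SLP-76, had 5 and 6 regions inside or near the gene, the strongest with folds of 10.2 (rank 297) and 19.1 (rank 29). Sla, a receptor-downregulating adaptor, had folds of 11.3 (rank 224) and 17.7 (rank 41). Csk, the kinase that restrains LCK, had a kept region of 14.2 in both lists (ranks 108 and 106). Each of these genes had a kept region, which their choice made likely. They were named for a high fold or after their values were seen, and 99.4% of the first WT fold bin was kept. The 6 genes called in the homo list alone included Lat, Rasgrp1, Ptpn6, Ubash3a and Cd2ap, and for 5 of the 6 the homo-only region was at the gene's start. For Lat, the membrane scaffold of the pathway, its fold was 5.39 (rank 2040), and for Rasgrp1, an activator of Ras, 5.52 (rank 1919). Lck had a region in both lists but not the same one: the WT-only region lay in the gene body (fold 5.52, rank 1147) and the homo-only region at the start (fold 4.86, rank 2765).

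Genes of the receptor and the cell surface went from 10 to 15 of 20. Cd3d, a signalling chain of the receptor, had a kept region in the gene body with folds of 9.97 (rank 317) and 7.69 (rank 748). Cd8b1, the β chain of the CD8 coreceptor, had 2 regions in WT and 4 in homo. The strongest differed, in the gene body with 6.59 (rank 793) in WT and at a gene end with 6.02 (rank 1501) in homo, and both were kept. Cd5, a negative regulator of the receptor, had a kept region at its start with 6.40 (rank 845) and 6.58 (rank 1174). Cd2, an adhesion molecule, had 6.07 (rank 936) and 4.58 (rank 3319). These genes were named for the highest folds of their list, so their ranks follow from that choice. Among the other called genes the strongest WT region lay as low as rank 3042, for Cd8a. The CD3 genes Cd3e and Cd3g had no WT region, and a homo-only region at the start with folds of 3.14 (rank 8012) and 5.35 (rank 2090). In the loci of the receptor itself, the Tcra and Tcrd locus on chromosome 14 held 26 WT and 28 homo regions, of which 20 in each were kept, and Tcrb held 4 and 3. The Tcrg locus held none in either list, and the immunoglobulin loci Igh and Igk held 6 and 8, and 0 and 1.

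T lineage transcription factors went from 12 to 17 of 20. Runx3, a factor of CD8 lineage choice, had a kept promoter region with folds of 17.5 (rank 45) and 13.9 (rank 118). At Tcf12, which encodes the E protein HEB, the values were 16.6 (rank 55) and 16.8 (rank 54). Gfi1, a repressor of early T cell genes, had 10.2 (rank 300) and 8.09 (rank 649), and Runx1 9.63 (rank 345) and 9.54 (rank 410), with 4 WT regions of which 2 were WT-only. Tcf7, which encodes TCF-1, had its strongest WT region outside the gene (fold 6.77, rank 740) and its strongest homo region inside it (fold 7.54, rank 789). Both were kept, and a further one lay at the start in homo alone (fold 5.96, rank 1552). The 5 genes called in the homo list alone included Gata3, Myb, Id2 and Id3, and the 5 had folds between 3.13 (Id2) and 7.01 (Id3). Among Notch pathway genes the count went from 4 to 8 of 18, with weaker regions: Dll4, a Notch ligand, had a kept start region with 7.32 (rank 614) and 4.92 (rank 2670), and Rbpj, the nuclear partner of Notch, 4.07 (rank 2333) and 4.73 (rank 2987). Notch1 had 3 regions in homo and 0 in WT.

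All 5 Ikaros family genes were called in the homo list and 3 in the WT list. Ikzf4, which encodes Eos, had a kept region with folds of 9.51 (rank 355) and 7.13 (rank 941). Ikzf1 itself had 2 regions in WT and 5 in homo. Its strongest WT region, a kept one, had 4.33 (rank 2038) and its strongest homo region, a homo-only one elsewhere in the gene, 5.16 (rank 2288). Ikzf3, the mutated gene, had 2 and 4 regions, the strongest with 5.04 (rank 1426) and 4.85 (rank 2790). Ikzf2 and Ikzf5 had 1 homo-only region each, at a start, with 3.43 and 4.37. Genes for NuRD and other corepressors went from 5 to 11 of 18. Sin3b, a scaffold of histone deacetylases, had 10.4 (rank 287) and 7.88 (rank 698), and Mta3, a NuRD subunit, 6.77 (rank 744) and 7.91 (rank 686). The 7 genes called in the homo list alone, Hdac1, Hdac2, Mta1, Mbd2, Mbd3, Rbbp4 and Smarca4, had folds from 3.13 to 5.25. The median of all homo-only regions was 3.99.

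With the full lists, and in percentage points, the widest gaps between the lists were among survival, cytokine signalling and cell cycle genes. Cytokine receptor and STAT genes went from 3 to 12 of 19, survival and selection genes from 4 to 13 of 16 and cell cycle genes from 3 to 12 of 20. Il7r had a kept promoter region with folds of 9.09 (rank 386) and 7.15 (rank 933). Socs1 had none in WT, and in homo a region of 2227 bases over its start with a fold of 10.3 (rank 344), the highest of any list gene called in the homo list alone. Stat3 had a kept region of 9.45 (rank 360) in its body in WT, and its strongest homo region, 4.79 (rank 2883), was a homo-only one elsewhere in the body. Fas, the death receptor, had 3 regions in each list, the strongest 16.9 (rank 51) and 19.8 (rank 21), and Egr2, a factor of positive selection, a kept start region of 9.87 (rank 324) and 10.5 (rank 327). Of the BCL2 family, 6 of the 8 genes in the list had regions in the homo list alone, each with one at the start. Folds at the start ran from 3.82 (Mcl1, rank 5605) to 6.31 (Bcl2l11, which encodes BIM, rank 1288). Between them were Bcl2 (rank 2282), Bak1 (rank 3963), Bbc3 (PUMA, rank 4316) and Bcl2l1 (rank 5374). The other 2 of the 8, Bax and Pmaip1, had none in either list. The family was grouped after the values were seen. Of all protein-coding genes, 18.2% were called in the homo list alone. With both lists at equal length the survival and selection count went from 4 to 5 of 16, and the family was not counted there. Ccnd3, the D cyclin of thymocyte growth, had 8 regions in WT and 10 in homo, the strongest 14.01 (rank 113) and 11.6 (rank 234). Cdk6, a kinase of G1, had a kept region with 4.66 (rank 1701) and 8.29 (rank 601), and Cdkn2d, the inhibitor p19, one with 4.90 (rank 1513) and 7.99 (rank 661). Cdkn1b, the cell cycle inhibitor p27, had a homo-only start region of 6.12 (rank 1428).

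Recombination, homing and the other lineages completed the lists. V(D)J recombination and end joining genes went from 3 to 7 of 14: Rag1 had 8.73 (rank 422) and 6.58 (rank 1169), Xrcc6 (Ku70) 6.44 (rank 833) and 9.90 (rank 376), and Lig4, the ligase of end joining, a homo-only start region of 6.33 (rank 1277). The Prkdc region, with 3.74 (rank 5899), is the same as that of its neighbour Mcm4 and counts for both lists. Homing genes went from 6 to 9 of 15, with Cxcr4 at 6.19 (rank 888) and 5.79 (rank 1690), Ccr4 with a homo-only intergenic region of 8.58 (rank 552) and Klf3 with a homo-only start region of 7.22 (rank 902). B lineage genes went from 6 to 9 of 20, with Irf4 at 11.5 (rank 212) and 6.67 (rank 1127) and Cd79b at 8.24 (rank 488) and 7.53 (rank 793). NK genes went from 1 to 3 of 16 and myeloid genes from 2 to 3 of 16, with the homo shares below the 27.1% of all protein-coding genes. In WT the NK share, 6.25%, was below and the myeloid share, 12.5%, above the 9.93% of all protein-coding genes. Eomes, a factor of cytotoxic cells, had 6.00 (rank 960) and 4.39 (rank 3745). Itgam, the integrin CD11b, had a region of 4.42 (rank 1948) in the gene body in WT, and its strongest homo region, 8.22 (rank 620), was another one, between genes.

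A few genes held several regions of 1 class. After Fyb, the protein-coding genes with the most homo-only bases in or within 5000 bases were Gse1 with 4397 bases in 7 regions, Zfp36l2, an mRNA decay factor of thymocyte development with 4285 bases in 2 regions, and Ppm1h, a phosphatase gene with 3779 bases in 8 regions. Klf13 had 3294 bases and Bicral 3267. Most of these genes had regions of the WT list too: Gse1 7, Ppm1h 4, Fyb 2, Zfp36l2 and Klf13 1 each, and Bicral 0. The counts were not adjusted for gene length. The Tcra and Tcrd locus had 6 WT-only regions of its 26 WT regions, near the 21.1% of the whole WT list, and Ubac2 had 3. Others, among them Runx1, Tle5, Ldb1 and Prkch, had 2 each, and those named had 6, 1, 2 and 3 homo regions as well. Of the WT-only regions, 25.2% had a homo region within 10000 bases and 76.2% within 100000. For homo-only regions the nearest WT region was within 10000 bases for 11.3% and within 100000 for 48.8%.

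Both lists were spread over all chromosomes. Chromosome 2 had the largest share of both lists, 8.09% of WT and 7.75% of homo regions. The ratio of homo to WT regions ran from 2.06 on chromosome 14 to 2.98 on X, with Y at 6 WT and 5 homo regions. X carried few regions in both, 1.12% and 1.45%. Per 100 protein-coding genes it had 4.14 and 12.3, against 11.2 and 23.9 on chromosome 7, the lowest autosome. Chromosome 12, the highest, had 23.9 and 55.8. Outside the named chromosomes, unplaced scaffolds held 26 WT and 19 homo regions.

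**Figure D5:**
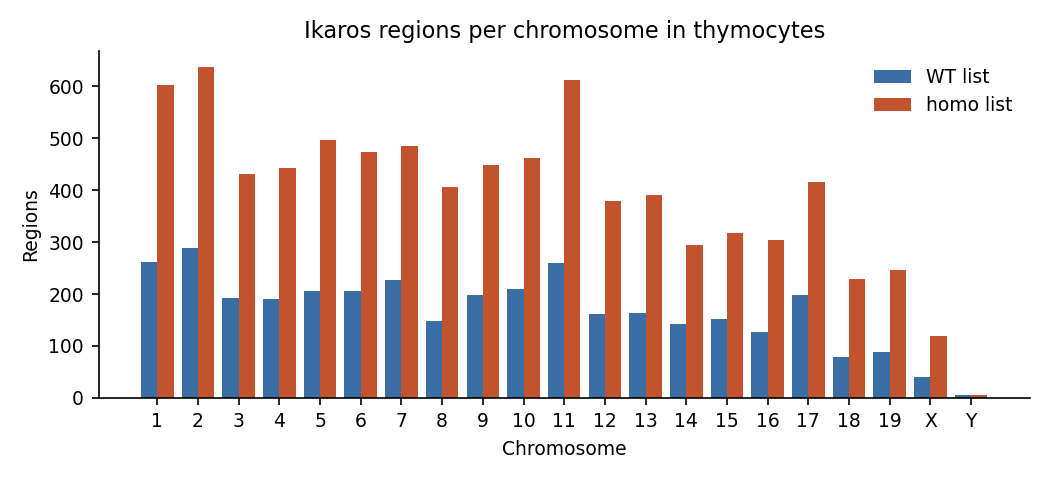
Number of Ikaros regions (vertical axis) on each chromosome (horizontal axis) in the WT list (blue bars) and the homo list (orange bars). The homo list has more regions on every chromosome but Y, by 2.06 to 2.98 times.

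Set against the study's other lists, the homo-only regions held a small group that also carried Aiolos. The homo Aiolos list of thymocytes had 184 regions and the WT Aiolos list 25. Of the 184, 173 overlapped the homo Ikaros list, and 155 (84.2%) overlapped the homo and not the WT Ikaros list. They met 137 homo-only Ikaros regions, 2.53% of these. The 137 stood apart from the other 5276 homo-only regions on chromosomes. Only 17.5% of the 137 were at promoters against 59.8% of the others, and the share was near the 16.3% of the whole homo Aiolos list. The median width of the 137 was 776 bases against 354, and their median fold was 9.22 (percentile 94.6 of the homo list) against 3.96. Bsg, the Fyb region, Mknk2 and the regions near Rbm43 and Hephl1 were among them. The WT Aiolos lists met 0 homo-only regions, but only 8 of the 25 WT thymocyte and 9 of the 431 WT pre-B Aiolos regions overlapped the homo Ikaros list at all. An overlap share that asks for at least 50% of both regions gave 23.4% in place of 84.2%, and Ikaros regions of at most 1000 bases gave 52.2%.

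Many of these regions were also in the Ikaros list of mutant pre-B cells. Of the 137 homo-only regions with homo Aiolos, 136 (99.3%) overlapped the Ikaros list of homo pre-B cells and 0 that of WT pre-B cells. The strong homo-only regions without Aiolos recurred often too: of the 215 in the first fold bin, 98 had homo Aiolos and all 98 were in the homo pre-B list, while of the 117 without it 81 (69.2%) were. Those 117 were at promoters in 85.5% and the 98 in 20.4%. Of all the other 5276, 731 (13.9%) overlapped the homo and 116 (2.20%) the WT pre-B list. All homo-only regions together overlapped the homo pre-B list in 16.0% (15.1 to 17.0) and the WT pre-B list in 2.14% (1.77 to 2.56), and with both thymocyte lists at 3572 regions in 32.1% and 1.58%. Kept regions were common in both pre-B lists, with 52.5% of those in the WT list overlapping the homo pre-B list and 35.9% the WT pre-B list. For WT-only regions the shares were 35.9% and 24.2%. The pre-B lists held 8609 homo and 3683 WT regions, so the longer list gives more chances to overlap. The 754 homo-only regions found in the homo pre-B list and not the WT pre-B list were at promoters in 56.4% and had a median fold of 5.27, against 59.95% and 3.91 for the 4547 found in no pre-B list.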

How the data were processed

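Ikaros ChIP-seq of thymocytes from 1 WT and 1 homo library was analysed from the deposited broad-peak lists, grouped by the labels' genotype. The authors deposited called regions with a score, a fold ratio over control, and −log10 p and −log10 q; per the submitters' processing notes the tools include MACS2 2.1.1, STAR 2.7.0 and HISAT2 2.1.0 with build mm10. Each list belongs to 1 library, per the labels. The control used, thresholds, read filters and depth are not given in the sources used here, and deeper reads would let a caller report more and weaker regions. RNA counts (B lineage cells) were not used here.

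From the lists, overlaps (at least 1 base), widths, ranks and exact Clopper-Pearson 95% intervals were computed with Python 3.11.15, pandas 2.3.3 and scipy 1.17.1; 13 interval checks against bedtools 2.31.1 and planted positions had 0 disagreements. Genes and promoter windows are from RefSeq, GRCm38.p6, which is the mm10 build; 180 of 237 list genes have a window, and for the rest either gene end counted as a start. No test was run, as there is 1 library per group. The genes named are the 10 regions of each class with the highest fold (kept: the highest lower rank), the 4 genes of each list with the highest fold, and those with the most homo-only bases or WT-only regions; other list genes were named after their values were seen, and some genes that the rule picks are not reported here. Members and lists were chosen with earlier results of these data known. Alternatives were other overlap rules, a stricter q, equal list lengths, other windows and joined regions.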

Additional observations from a re-analysis of the deposited data

How the results depend on the processing

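The homo-only promoter share stayed above the kept share in all 7 settings that gave both (53.3% to 65.3% against 25.4% to 42.6%). The WT list's kept share was above the homo list's in all 7, but list length fixes that order. Nearly the same number of regions overlaps in each list, 2817 and 2804 with the full lists, so the shorter list has the larger share. At equal length the kept shares were 54.4% and 54.1%. With −log10 q of at least 5 there were 2027 WT and 3623 homo regions, with medians of 410 and 501 bases, kept shares of 73.1% and 40.8%, a kept promoter share of 30.0%, 8.21% of genes called in homo, 18.2% of homo-only regions in the homo pre-B list and 93.1% of homo Aiolos regions in the homo and not the WT Ikaros list. At equal length the homo list has 3572 regions by construction, a homo-only promoter share of 62.4%, 8.08% of genes and a homo pre-B share of 32.1%. An overlap of at least 50% of both regions gave kept shares of 60.3% and 26.2%, 11.5% in the homo pre-B list and 23.4% for Aiolos. Kept regions alone had median widths of 368 and 499.5 bases. The 3000-base promoter window gave 42.6% of kept and 65.3% of homo-only regions, and midpoints in the window 30.0% of kept. Genes called in homo were 11.96% for the gene body alone and 26.3% within 20000 bases. Of the settings chosen after seeing the data, either gene end as the start gave 56.2% of homo-only at promoters. A −log10 q of at least 5 left 56 WT and 86 homo list genes, and 439 and 1670 protein-coding genes at starts. Protein-coding genes alone gave 25.4% of kept, 53.3% of homo-only and 27.1% of genes. Regions of at most 1000 bases gave kept shares of 68.0% and 30.8%, promoter shares of 28.5% and 57.3%, and 52.2% for Aiolos. Causes were not tested beyond each setting's construction. No paired analysis was possible because each genotype has 1 library and no result comes from a test; for the same reason no library could be left out. Depth, the calling threshold and animal-to-animal spread are unknown, so the difference in list length cannot be told apart from a difference between these libraries.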
